A study of Mus musculus with 10 samples.

Results

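Transcripts usually associated with myeloid cells and B cells were followed in CD4+ T cell samples from mouse spleen. The genes are Itgax, Adgre1, Cd300a, Csf1r, Cd22, Ly86, Cybb, Fscn1 and Cst3, 9 of the 17097 genes with a probe set on the array, and they are covered by 16 of its 45037 probe sets that are not controls. They were chosen by gene symbol, and the choice was made from results of these same arrays. Most of them, namely Itgax, Adgre1, Cd300a, Cybb, Fscn1, Ly86 and Cd22, are called lower in the injected than in the naive CD4+ cells. That comparison is therefore given as a description, without a test. The main probe set of each gene is the one with the highest mean over the 10 arrays.

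All mice were of the inbred strain DBA/1. Immature dendritic cells were given to the injected mice by the intraperitoneal route, 500000 on each of days -7, -5 and -3 before death, and none were given to the naive mice. From the injected mice came CD4+ cells that carry CD49b (3 arrays), CD4+ cells that carry CD25 (3 arrays) and CD4+ cells taken as a whole (2 arrays). From the naive mice came CD4+ cells taken as a whole (2 arrays). CD49b is the integrin alpha 2 chain, which natural killer cells and platelets also carry, and CD25 is the alpha chain of the interleukin 2 receptor. T cells were enriched by removing other cells on magnetic beads and then sorted by flow cytometry. Each sort used the pooled cells of several mice, and no label states that replicates of a group were separate pools, so a p-value here measures the spread between samples that may be technical repeats.

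Dendritic cells, macrophages and B cells of the spleen take up antigen and present it to CD4+ T cells on MHC class II molecules. Each of these cell types carries surface receptors by which it is commonly recognised: the integrin CD11c (Itgax) on dendritic cells, F4/80 (Adgre1) and the CSF1 receptor (Csf1r) on macrophages, and CD22 on B cells. Ly86, Cybb, Fscn1 and Cst3 are abundant in one or more of the same cell types, although T cells can also express some of these genes, above all Cst3, whose product is made by most tissues.

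The promoter windows of 7 of the 9 genes were found in RefSeq for the assembly GRCm38.p6, each running from 250 bases before to 50 bases after the annotated transcription start, without Adgre1 and Csf1r. They were searched for GAGGAA on both strands (TTCCTC on the printed strand when the match is on the other), the core of the site recognised by PU.1, the product of Spi1 and a regulator of myeloid and B cell genes. The hexamer was in 3 of the 7 windows and in 28.3% of all 32851 windows (9289). The 3 windows with it belong to genes with 3 different patterns against CD4+ cells of injected mice. Cybb was lower in CD49b+ cells and, on 1 probe set and not under all alternatives, higher in CD25+ cells. Cd300a was lower in both subsets and Cst3 higher in both. The windows are printed 5′ to 3′ on the strand of the gene, with the hexamer in capitals. The match is a description of the letters and not evidence of a site.
Cybb, chrX:9469275-9469574, minus strand: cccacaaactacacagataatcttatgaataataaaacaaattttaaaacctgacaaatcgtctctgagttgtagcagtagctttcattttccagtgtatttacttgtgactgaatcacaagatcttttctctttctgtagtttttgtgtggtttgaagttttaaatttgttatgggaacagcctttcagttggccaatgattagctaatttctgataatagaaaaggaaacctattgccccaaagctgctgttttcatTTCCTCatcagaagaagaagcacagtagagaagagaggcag
Cd300a, chr11:114889791-114890090, plus strand: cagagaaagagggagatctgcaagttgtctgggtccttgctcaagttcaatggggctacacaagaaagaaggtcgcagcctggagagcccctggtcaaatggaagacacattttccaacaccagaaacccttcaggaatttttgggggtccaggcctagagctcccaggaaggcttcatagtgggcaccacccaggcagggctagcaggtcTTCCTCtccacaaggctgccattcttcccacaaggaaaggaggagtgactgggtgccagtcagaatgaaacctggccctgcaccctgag
Cst3, chr2:148875463-148875762, minus strand: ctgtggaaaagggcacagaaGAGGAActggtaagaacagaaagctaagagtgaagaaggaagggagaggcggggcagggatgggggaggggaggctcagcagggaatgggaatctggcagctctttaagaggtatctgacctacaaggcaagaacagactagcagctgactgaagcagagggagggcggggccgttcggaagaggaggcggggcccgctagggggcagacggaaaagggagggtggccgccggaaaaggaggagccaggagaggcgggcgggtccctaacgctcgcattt

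The hexamer began 9 bases after the start in Cybb, 39 bases before it in Cd300a and 230 bases before it in Cst3. The G and C content of the windows was 35.3% in Cybb, 54.7% in Cd300a and 60.3% in Cst3. The windows of Itgax, Fscn1, Ly86 and Cd22 did not hold these letters.

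Values are the deposited log2 expression values, on which a difference of 1 is a doubling. The arrays differed in ways that run with the groups. The median over probe sets was between 4.61 and 4.65 on the 6 arrays of the subsets and between 4.79 and 4.81 on the 4 arrays of CD4+ cells, and the 6060 dim genes, which are not above the median of at least 2 arrays, had a median difference of -0.19 in CD49b+ and -0.20 in CD25+ cells against CD4+ cells of injected mice. As a sign of RNA quality, the 3′ minus the 5′ value of Gapdh was between 0.23 and 0.69 in CD49b+ cells, between 0.37 and 0.60 in CD25+ cells, 0.26 and 0.13 in CD4+ cells of injected mice and -0.01 and 0.06 in CD4+ cells of naive mice. Poly-A control transcripts had a mean of 7.23 on CD49b+ replicate 3 and 7.04 on CD25+ replicate 3, and of 4.81 to 5.86 elsewhere. The part of RNA quality in the results was not tested, while calls that were lost with arrays centred on their medians, or without the arrays of high poly-A signal, are given beside each gene. All 9 genes passed the filter on dim values and were tested among 11037 genes, but Cd300a passed through the arrays of CD4+ cells alone, since 0 of 3 arrays of either subset lay above their medians, so that it could pass only with a difference. The same holds for Cd300ld and Csf2rb2, named below. Ly96, Cd79a, Cd79b, Gzmb, Gzma, Ncr1 and Fcgr3 passed through the arrays of the subsets alone, and Spi1 and Ciita through those of naive mice alone. For Cd300a and all of these genes, what is given is a description. Differences of genes near the array median have no firm size or rank.

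Itgax, Adgre1, Cd300a and Ly86 were lower in both sorted subsets than in the CD4+ cells of injected mice, and the other genes differed in pattern. In CD49b+ cells against CD4+ cells of injected mice, 7 of the 9 genes fell, where 23.5% of all genes tested were called lower, and 1, Cst3, rose, where 29.9% were called higher. In CD25+ cells, 4 fell (Itgax, Adgre1, Cd300a and Ly86), beside 17.8% of all genes, and 2 rose (Cybb and Cst3), beside 20.8%. The CD25+ calls of Adgre1, Cybb and Cst3 were lost under some alternatives, given with each gene below. Between the subsets, 4 were lower in CD49b+ than in CD25+ cells (Cybb, Fscn1, Ly86 and Cd22), beside 12.4% of all genes, and 1, Itgax, was higher, beside 17.5%. Calls were made in limma at an adjusted p under 0.05, over all 11037 genes. Cd300a is 1 of the 7 and 1 of the 4, and as it had to differ to be tested it supports neither count, which leaves 6 and 3 of the other 8 genes. The genes were chosen with these results known, and in samples of many cells fewer cells of a type and less RNA per cell cannot be told apart.

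The CD4+ cells of injected mice had lower values than those of naive mice for all 9 genes: on each gene, both arrays of injected mice lay below both arrays of naive mice. This was so for 30.0% of all genes tested. The median difference of the 9 genes was -1.02, against -0.03 over all genes. Set against naive CD4+ cells, the CD49b+ cells were thus further away for most genes, with -3.87 for Fscn1, -3.52 for Ly86 and -2.25 for Cybb, and nearer for Cst3, with 0.58. These share their arrays with the other comparisons. As background only, since the genes were chosen on this comparison, 1.36% of all genes were called lower in it and 0.0272% higher.

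**Figure D1:**
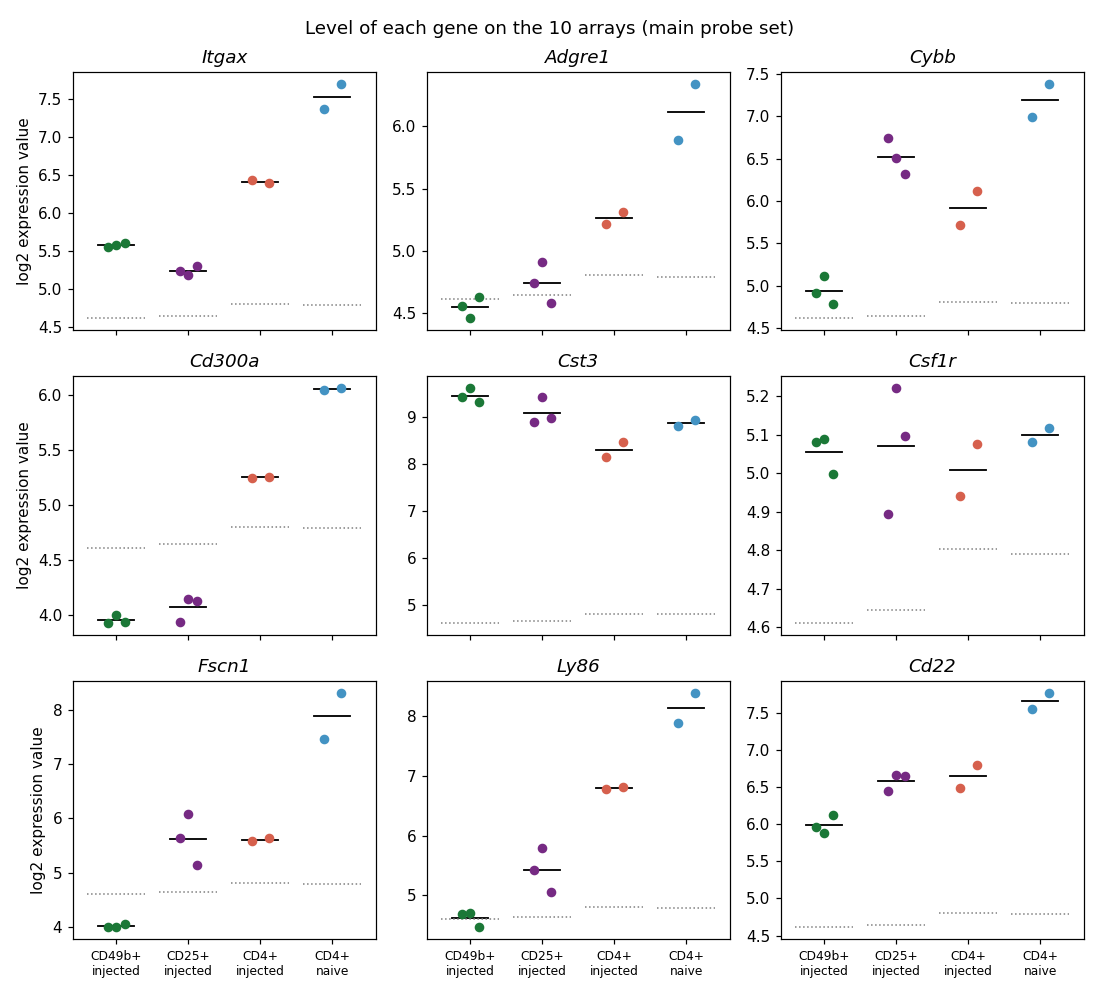
Log2 expression value of the main probe set of each gene (vertical axis, a different range in each panel) in CD49b+ and CD25+ cells of injected mice (3 arrays each) and in CD4+ cells of injected and of naive mice (2 arrays each). Points are arrays, black bars are group means and grey dotted lines are the mean of the array medians; Cd300a lies under the dotted line in both subsets, while Cst3 is at least 3.51 above it in every group.

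Itgax encodes the integrin alpha X chain, CD11c, which pairs with the beta 2 chain and is carried by dendritic cells and some macrophages. Its probe set (1419128_PM_at) stood at 5.55, 5.58 and 5.60 in CD49b+ cells, at 5.24, 5.19 and 5.30 in CD25+ cells, at 6.43 and 6.39 in CD4+ cells of injected mice and at 7.36 and 7.70 in CD4+ cells of naive mice. The 4 groups did not overlap, with naive CD4+ cells at the top and CD25+ cells at the bottom. Against CD4+ cells of injected mice, Itgax fell in CD49b+ cells (-0.83 ± 0.10, SE, limma adjusted p = 0.000115) and in CD25+ cells (-1.17 ± 0.10, adjusted p = 2.45e-05). It was the one gene of the 9 that was called higher in CD49b+ than in CD25+ cells (0.34 ± 0.09, adjusted p = 0.0182), but not when CD49b+ replicate 3 (adjusted p = 0.0554) or CD25+ replicate 2 (0.0527) was left out, nor without both arrays of high poly-A signal (0.0707). In CD4+ cells, injected minus naive, the difference was -1.12 ± 0.11. Of the other beta 2 integrin genes, Itgb2, the shared beta 2 chain, averaged 11.11 ± 0.16 in CD49b+ cells (SD, n = 3) and 10.70 ± 0.07 in CD4+ cells of injected mice (SD, n = 2) and was called higher in CD49b+ cells (0.41 ± 0.10, limma adjusted p = 0.00787). Itgal, the alpha chain of LFA-1, rose in both subsets (0.51 ± 0.09 in CD49b+ and 0.43 ± 0.09 in CD25+ cells), whereas Itgam, which encodes CD11b, lay under the array median on all 10 arrays.

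Adgre1 encodes F4/80, an adhesion G protein-coupled receptor and the usual marker of mouse macrophages. It (1451161_PM_a_at) stood at 4.56, 4.46 and 4.63 in CD49b+ cells, at 4.74, 4.91 and 4.58 in CD25+ cells, at 5.22 and 5.31 in CD4+ cells of injected mice and at 5.89 and 6.34 in CD4+ cells of naive mice. The subsets overlapped each other and lay below both groups of CD4+ cells. In CD49b+ cells 1 of 3 arrays was above its median and in CD25+ cells 2 of 3, so the subset values lie near background. Adgre1 fell in CD49b+ cells (-0.71 ± 0.14, limma adjusted p = 0.00216) and in CD25+ cells (-0.52 ± 0.14, adjusted p = 0.0158). The CD25+ call was lost with arrays centred on their medians (-0.36, adjusted p = 0.0632), with quantile normalization (0.0519), without the arrays of high poly-A signal (0.0582) and without either CD4+ array of injected mice (0.0533 and 0.09). The subsets differed by -0.19 ± 0.13 (CD49b+ minus CD25+, adjusted p = 0.287), and CD4+ cells by -0.85 ± 0.15 (injected minus naive). Of 3 other adhesion G protein-coupled receptor genes tested, Adgrl1 fell in both subsets (-0.60 ± 0.12 in CD49b+ and -0.40 ± 0.12 in CD25+ cells). Adgre5, which encodes CD97, rose in CD49b+ cells (0.28 ± 0.10).

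Cd300a encodes an inhibitory receptor that binds phospholipids exposed on dying cells and signals through phosphatases. Its main probe set (1435903_PM_at) stood at 3.93, 3.99 and 3.94 in CD49b+ cells, at 3.94, 4.15 and 4.13 in CD25+ cells, at 5.25 and 5.26 in CD4+ cells of injected mice and at 6.05 and 6.07 in CD4+ cells of naive mice. The subsets overlapped each other under the array median, with both groups of CD4+ cells above it and apart. The differences of -1.30 ± 0.08 in CD49b+ and -1.18 ± 0.08 in CD25+ cells, each against CD4+ cells of injected mice, are given as a description, since the gene entered the test through the CD4+ arrays alone. They were -1.11 and -1.02 with arrays centred on their medians. CD49b+ and CD25+ cells differed by -0.12 ± 0.07 (adjusted p = 0.271), and injected minus naive CD4+ cells by -0.80 ± 0.09. Of the 3 other CD300 genes tested, Cd300lf and Cd300c2 fell in both subsets (-0.97 ± 0.12 and -0.59 ± 0.11 in CD49b+, -0.88 ± 0.12 and -0.45 ± 0.11 in CD25+ cells), and Cd300ld, which was above the array median in CD4+ cells alone, averaged 4.28 in CD49b+ and 4.26 in CD25+ cells and 4.87 in CD4+ cells of injected mice. Cd300lf, which encodes an inhibitory receptor of myeloid cells, averaged 4.74 ± 0.18 in CD49b+ and 4.83 ± 0.07 in CD25+ cells (SD, n = 3 each), 5.71 ± 0.14 in CD4+ cells of injected mice and 6.40 ± 0.12 in those of naive mice (SD, n = 2 each).

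Csf1r encodes the receptor for the growth factor CSF1, on which most macrophages depend for survival. It (1423593_PM_a_at) stood at 5.080, 5.089 and 4.999 in CD49b+ cells, at 4.89, 5.22 and 5.10 in CD25+ cells, at 4.94 and 5.08 in CD4+ cells of injected mice and at 5.08 and 5.12 in CD4+ cells of naive mice. Values of all 4 groups lay close together, within a range of 0.33 over the 10 arrays, and no order of the groups exceeded their spread. They averaged 0.44, 0.43, 0.20 and 0.31 above the array median in the same order of groups, so the signal lay near background. The difference was 0.05 ± 0.10 in CD49b+ cells (limma adjusted p = 0.712) and 0.06 ± 0.10 in CD25+ cells (adjusted p = 0.659), both set against the CD4+ cells of injected animals, and -0.02 ± 0.09 between the subsets (adjusted p = 0.927). These differences changed sign under several alternatives and none was called. Injected minus naive CD4+ cells gave -0.09 ± 0.11. The gene of its ligand behaved otherwise: Csf1 averaged 9.44 ± 0.15 in CD49b+ and 7.20 ± 0.14 in CD25+ cells (SD, n = 3 each), 6.02 ± 0.10 in CD4+ cells of injected mice and 6.07 ± 0.12 in those of naive mice (SD, n = 2 each). Csf1 rose by 3.42 ± 0.12 in CD49b+ cells (limma adjusted p = 6.58e-08) and by 1.18 ± 0.12 in CD25+ cells (adjusted p = 5.87e-05). Csf2rb2, a receptor chain for interleukin 3 in the mouse, was above the array median in CD4+ cells alone, and averaged 4.36 ± 0.01 in CD49b+ and 4.46 ± 0.17 in CD25+ cells (SD, n = 3 each) and 5.05 ± 0.03 in CD4+ cells of injected mice (SD, n = 2).

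Cd22 encodes a sialic acid-binding lectin that restrains B cell receptor signals. It (1419768_PM_at) stood at 5.96, 5.88 and 6.13 in CD49b+ cells, at 6.45, 6.66 and 6.65 in CD25+ cells, at 6.49 and 6.80 in CD4+ cells of injected mice and at 7.55 and 7.77 in CD4+ cells of naive mice. CD49b+ cells were lowest with no overlap, CD25+ cells overlapped the CD4+ cells of injected mice, and naive CD4+ cells were highest. Cd22 fell by 0.65 ± 0.13 in CD49b+ cells (limma adjusted p = 0.002), and in CD25+ cells the difference was -0.05 ± 0.13 (adjusted p = 0.763), which turned to 0.10 with arrays centred on their medians. It was lower in CD49b+ than in CD25+ cells (-0.60 ± 0.11, adjusted p = 0.00323). In CD4+ cells, injected minus naive, it was -1.02 ± 0.14. Of the other Siglec genes 2 were tested, and Cd33 was called lower in CD49b+ cells (-0.28 ± 0.11, adjusted p = 0.0486). Of the phosphatases that such inhibitory receptors recruit, Inpp5d rose in both subsets (1.00 ± 0.10 in CD49b+ and 0.62 ± 0.10 in CD25+ cells) and Ptpn6, which encodes SHP-1, fell in both (-0.34 ± 0.10 and -0.32 ± 0.10).

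Ly86 encodes MD-1, the secreted partner of the B cell and myeloid surface protein RP105. Its probe set (1422903_PM_at) stood at 4.68, 4.70 and 4.47 in CD49b+ cells, at 5.43, 5.79 and 5.06 in CD25+ cells, at 6.77 and 6.82 in CD4+ cells of injected mice and at 7.89 and 8.39 in CD4+ cells of naive mice. The 4 groups stood in that order without overlap, and CD49b+ cells lay at about the array median, with 2 of 3 arrays above it. Ly86 fell in CD49b+ cells (-2.18 ± 0.20, limma adjusted p = 2.39e-05), to a level near background. In CD25+ cells it fell by 1.37 ± 0.20 (adjusted p = 0.000646). It was lower in CD49b+ than in CD25+ cells by -0.81 ± 0.18 (adjusted p = 0.00788), and injected minus naive CD4+ cells gave -1.34 ± 0.22. Cd180, which encodes RP105 itself, and Tlr4 and Cd14 lay under the array median on all 10 arrays and were not tested. Ly96, which encodes MD-2, the relative of MD-1 that pairs with TLR4, was above the array median in the subsets alone, averaging 5.64 ± 0.21 in CD49b+ and 4.98 ± 0.27 in CD25+ cells (SD, n = 3 each) and 4.54 ± 0.02 in CD4+ cells of injected mice (SD, n = 2).

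Cybb encodes the catalytic subunit of the phagocyte NADPH oxidase, which makes superoxide. The main probe set (1436778_PM_at) stood at 4.91, 5.12 and 4.78 in CD49b+ cells, at 6.75, 6.50 and 6.32 in CD25+ cells, at 5.72 and 6.12 in CD4+ cells of injected mice and at 6.99 and 7.39 in CD4+ cells of naive mice. No groups overlapped: CD49b+ cells were lowest, CD4+ cells of injected mice next, then CD25+ cells, and CD4+ cells of naive mice highest. Cybb fell by 0.98 ± 0.18 in CD49b+ cells (limma adjusted p = 0.00125) and rose by 0.60 ± 0.18 in CD25+ cells (adjusted p = 0.0218). The gap between the subsets, -1.59 ± 0.16 for CD49b+ minus CD25+ cells (adjusted p = 6.20e-05), was called under all 19 alternatives run. The rise in CD25+ cells was lost without replicate 1 of the CD4+ cells of injected mice (0.40, adjusted p = 0.181), without CD25+ replicate 1 (0.49, 0.0641) and with the mean of its probe sets (0.14, 0.251). Set against CD4+ cells of naive mice, CD25+ cells were lower instead (-0.67), given without a test since Cybb was chosen on those arrays. Injected minus naive CD4+ cells gave -1.27 ± 0.19.

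The other oxidase genes did not share the fall of Cybb in CD49b+ cells. All 4 that were tested rose there, where 29.9% of all genes were called higher, with a median of 0.68 against 0.03 over all genes. Ncf4, a cytosolic subunit, averaged 9.27 ± 0.09 in CD49b+ and 9.13 ± 0.11 in CD25+ cells (SD, n = 3 each), 7.87 ± 0.28 in CD4+ cells of injected mice and 8.42 ± 0.08 in those of naive mice (SD, n = 2 each), a rise of 1.40 ± 0.12 in CD49b+ and of 1.26 ± 0.12 in CD25+ cells. Cyba, the membrane partner of the Cybb product, rose by 0.90 ± 0.12 in CD49b+ and by 0.59 ± 0.12 in CD25+ cells. Rac2 and Rac1, GTPases that activate the oxidase and serve many other pathways, rose in CD49b+ cells (0.47 ± 0.11 and 0.39 ± 0.10).

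Fscn1 encodes fascin, an actin-bundling protein known from mature dendritic cells. The main probe set (1416514_PM_a_at) stood at 3.996, 4.006 and 4.060 in CD49b+ cells, at 5.64, 6.08 and 5.14 in CD25+ cells, at 5.58 and 5.64 in CD4+ cells of injected mice and at 7.47 and 8.32 in CD4+ cells of naive mice. CD49b+ cells lay under the array median on all 3 arrays, the CD4+ cells of injected mice lay inside the range of the CD25+ cells, and naive CD4+ cells were highest. Fscn1 fell by 1.59 ± 0.27 in CD49b+ cells (limma adjusted p = 0.000965), to a level under the array median, and differed by 0.01 ± 0.27 in CD25+ cells (adjusted p = 0.98). On this probe set alone, it was lower in CD49b+ than in CD25+ cells (-1.60 ± 0.24, adjusted p = 0.000897). Injected minus naive CD4+ cells gave -2.28 ± 0.30, again on this probe set alone and the widest gap of the 9 genes in that comparison. This gap was -2.71 without naive replicate 1 and -1.86 without naive replicate 2. Among other actin-bundling genes, Actn1 averaged 7.69 ± 0.14 in CD49b+ and 9.36 ± 0.10 in CD25+ cells (SD, n = 3 each) and 10.79 ± 0.12 in CD4+ cells of injected mice (SD, n = 2), a difference of -3.10 ± 0.10 and of -1.43 ± 0.10, both called. Lcp1, the plastin of blood cells, rose in both subsets (0.81 ± 0.08 and 0.57 ± 0.08).

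Cst3 encodes cystatin C, a secreted inhibitor of cysteine proteases such as the cathepsins. It (1426195_PM_a_at) stood at 9.44, 9.63 and 9.34 in CD49b+ cells, at 8.90, 9.43 and 8.98 in CD25+ cells, at 8.15 and 8.48 in CD4+ cells of injected mice and at 8.83 and 8.94 in CD4+ cells of naive mice. The CD4+ cells of injected mice were lowest without overlap, CD25+ cells overlapped both CD49b+ cells and naive CD4+ cells, and CD49b+ cells were highest. Cst3 rose by 1.15 ± 0.17 in CD49b+ cells (limma adjusted p = 0.000338) and by 0.79 ± 0.17 in CD25+ cells (adjusted p = 0.00461). The second call was lost without replicate 1 of the injected CD4+ cells (0.62, adjusted p = 0.0511) and when set against naive CD4+ cells (0.22, adjusted p = 0.344). CD49b+ minus CD25+ cells gave 0.37 ± 0.15 (adjusted p = 0.0921), which was called with the replicate number as a block (adjusted p = 0.0114) and without CD25+ replicate 2 (0.53, adjusted p = 0.0117). Injected minus naive CD4+ cells gave -0.57 ± 0.18.

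Among 13 other cystatin and cathepsin genes tested, 9 rose and 3 fell in CD49b+ cells, beside 29.9% and 23.5% of all genes. In CD25+ cells 5 rose and 3 fell, beside 20.8% and 17.8%. The medians of the 13 genes in CD49b+ and CD25+ cells were 0.65 and 0.23, against 0.03 and 0.02 over all genes. Ctsh, a cathepsin that trims peptides, averaged 4.27 ± 0.16 in CD49b+ and 4.73 ± 0.33 in CD25+ cells (SD, n = 3 each), 5.83 ± 0.17 in CD4+ cells of injected mice and 7.33 ± 0.30 in those of naive mice (SD, n = 2 each), the order of groups seen for Ly86. Ctsw, a cathepsin of cytotoxic lymphocytes, rose by 1.79 ± 0.25 in CD49b+ and by 0.81 ± 0.25 in CD25+ cells. Cst7, which encodes cystatin F of the same cells, rose by 1.39 ± 0.30 and by 2.59 ± 0.30. Ctsl, a lysosomal cathepsin, fell by 1.55 ± 0.22 in CD49b+ cells.

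**Figure D2:**
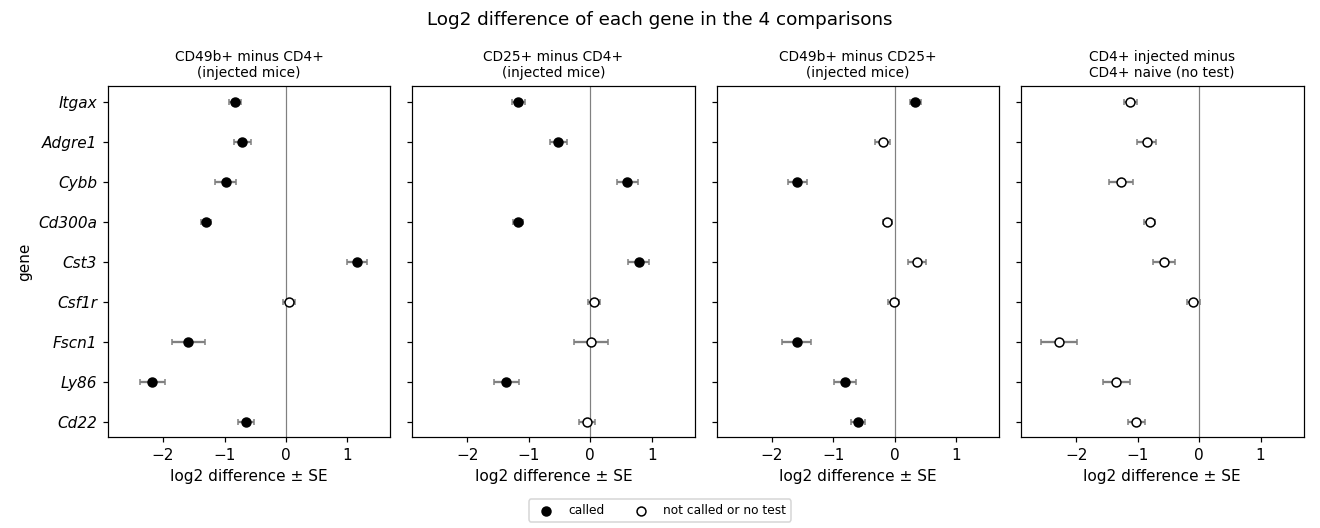
Log2 difference (horizontal axis, ± SE) of each gene in CD49b+ against CD4+ cells and CD25+ against CD4+ cells of injected mice, CD49b+ against CD25+ cells, and CD4+ cells of injected against naive mice. Filled points were called at an adjusted p under 0.05; the comparison with naive mice has no test, and there all 9 points lie below 0, while Cybb lies on opposite sides of 0 in the first panel (-0.98) and the second (0.60).

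Over the 10 arrays, the genes were not one block. With each profile centred on its own mean, the root mean square difference was lowest between Adgre1 and Cd22 (0.22) and between Itgax and Cd300a (0.23), and highest between Cst3 and Ly86 (1.63). Among all genes tested, the 3 nearest to Itgax were Cd209a (0.12), Tgfbi (0.18) and Alox5ap (0.22), and the nearest to Adgre1 were Ffar2, Flt3 and Mefv (each 0.14). Cybb lay nearest to Cd74 (0.18), Bcl6 (0.28) and H2-DMb2 (0.29), and Ly86 nearest to Ctsh (0.24), Wdfy4 (0.33) and Tyrobp (0.33). For Cd300a they were Ptpro (0.13), Stra6l (0.14) and Cd209a (0.16), and for Cd22 Lrrk2 (0.15), Ffar2 (0.21) and Avpi1 (0.21). Fscn1 had no profile as close, with Gpm6b at 0.38, Sostdc1 at 0.48 and Ly86 at 0.51, on a range of 4.32 between its own lowest and highest array. Cst3 lay nearest to Mthfs, Prdx2 and Ptpmt1 (each 0.13), and Csf1r, which varied little, to Ndufs3, Cetn3 and Mtarc2 (each 0.04). These are descriptions over arrays that share their groups and their processing.

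Of the 9 genes, Cybb, Cd300a, Fscn1 and Cd22 had other probe sets, 7 in all. Only 1 of the 7 lay above the array median on all 10 arrays, a probe set of Fscn1 (1448378_PM_at). It averaged 5.45 in CD49b+ cells, 5.42 in CD25+ cells, 5.75 in CD4+ cells of injected mice and 5.72 in those of naive mice, so that its differences (-0.30 and -0.33 for CD49b+ and CD25+ against CD4+ cells, and 0.03 for injected against naive) did not follow those of the main probe set. The 2 further Fscn1 probe sets differed by between -0.05 and 0.12 in the 4 comparisons. The 2 further Cybb probe sets, dim on at least 9 of 10 arrays, were lower in CD49b+ cells (-0.34 and -0.33) and in injected against naive CD4+ cells (-0.31 and -0.28), and in CD25+ cells they gave -0.06 and -0.14, opposite in sign to the main one. The second Cd22 probe set was lower in CD49b+ cells (-0.39) and in injected against naive CD4+ cells (-0.59), though under the array median throughout. That of Cd300a was under the median throughout too, at -0.39 in CD49b+ cells and 0.07 in injected against naive CD4+ cells. With the mean of all probe sets of a gene, Fscn1 gave -0.45 in CD49b+ against CD4+ cells and -0.35 against CD25+ cells, Cybb -0.55 and -0.69, and Cd22 -0.40 against CD25+ cells, all still called. Cd300a then gave -0.84 in CD49b+ and -0.72 in CD25+ cells against CD4+ cells. In injected against naive CD4+ cells the same mean gave -0.59 for Fscn1, -0.62 for Cybb and -0.36 for Cd300a. For CD49b+ minus CD25+ cells, the 3 other Fscn1 probe sets gave 0.03 (1448378_PM_at), 0.12 and 0.03, opposite in sign to the main one (-1.60). The mean of the Fscn1 probe sets holds the main one, so its calls are not separate support. The sizes given for Fscn1, its fall in injected against naive CD4+ cells and its lower value in CD49b+ than in CD25+ cells therefore rest on 1 probe set. The same holds for the rise of Cybb in CD25+ cells. Of the other Fscn1 probe sets, only 1448378_PM_at shared the sign of the fall in CD49b+ against CD4+ cells (-0.30). That probe set gave -0.33 in CD25+ cells, where the main one gave 0.01.

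**Figure D3:**
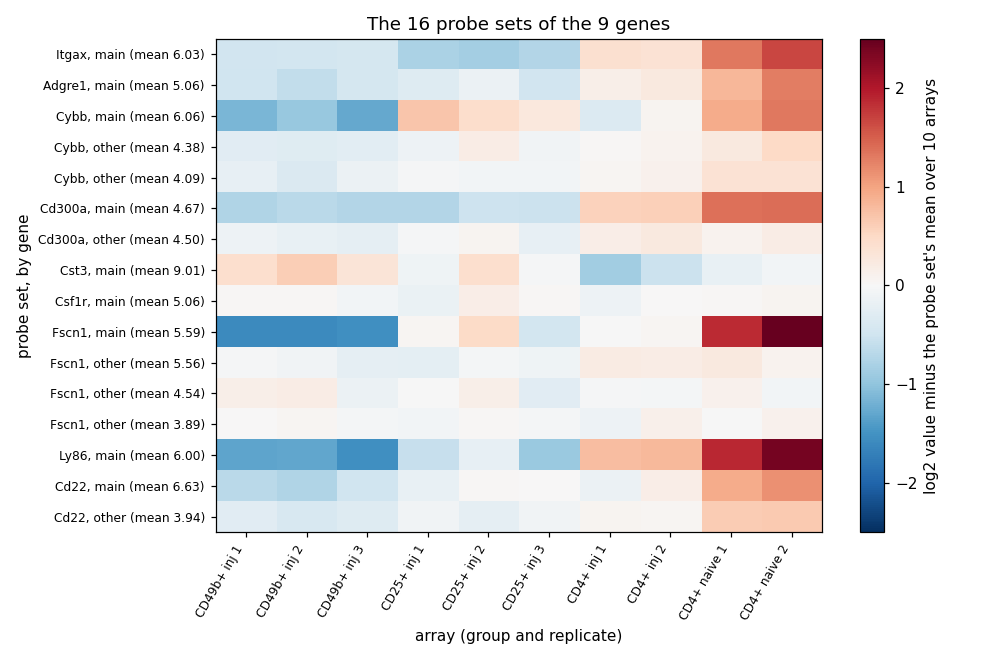
Log2 value of each of the 16 probe sets minus its own mean over the 10 arrays (colour, red above and blue below the mean), with arrays in columns by group and replicate and probe sets in rows, the main one of each gene first. The main probe set of Fscn1 varies over 4.32 between arrays, while its 3 others stay near their means.

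The defining markers of the cell types named by the 9 genes were looked at by level. Of 8 such markers, Itgam, Cd14 and Lyz2 of myeloid cells and Ms4a1 and Ighm of B cells lay under the array median on all 10 arrays. Cd79a was above it on 4 arrays, averaging 4.66 ± 0.13 in CD49b+ and 4.61 ± 0.19 in CD25+ cells (SD, n = 3 each), 4.72 ± 0.04 in CD4+ cells of injected mice and 4.65 ± 0.10 in those of naive mice (SD, n = 2 each). Spi1 was above it on 2, those of naive mice, at 4.48 ± 0.03 and 4.44 ± 0.14 in CD49b+ and CD25+ cells, 4.50 ± 0.00 in CD4+ cells of injected mice and 4.91 ± 0.07 in those of naive mice. Cd68, a protein of macrophage lysosomes, was above it on 8, at 4.51 ± 0.25, 4.87 ± 0.24, 5.33 ± 0.29 and 5.87 ± 0.10 in the same order of groups. Cd68 fell by 0.82 ± 0.18 in CD49b+ cells (limma adjusted p = 0.00417). All 11 T cell identity genes with a probe set were above the median on every array.

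Of 28 listed myeloid and dendritic cell genes other than the 9, 24 had a probe set and 17 were tested. On each array, 11 to 14 of the 24 lay above the median in CD49b+ cells, 14 to 15 in CD25+ cells, 13 to 14 in CD4+ cells of injected mice and 14 to 15 in those of naive mice. In CD49b+ cells 3 rose and 8 fell, beside 29.9% and 23.5% of all genes, with a median of -0.34 against 0.03. In CD25+ cells 4 rose and 6 fell, beside 20.8% and 17.8% of all genes, with a median of -0.13 against 0.02. Tyrobp, the adaptor of many activating receptors, averaged 5.10 ± 0.50 in CD49b+ and 5.34 ± 0.33 in CD25+ cells (SD, n = 3 each), 6.91 ± 0.22 in CD4+ cells of injected mice and 8.37 ± 0.27 in those of naive mice (SD, n = 2 each), and fell in both (-1.81 ± 0.28, limma adjusted p = 0.000499, and -1.57 ± 0.28, adjusted p = 0.00178). Mpeg1, a pore-forming protein of phagocytes, fell in both (-1.46 ± 0.16 and -1.54 ± 0.16), as did Clec7a, the receptor for fungal glucans (-1.26 ± 0.09 and -1.23 ± 0.09). Flt3, a receptor on which dendritic cells depend, fell as well (-0.94 ± 0.11 and -0.83 ± 0.11). Other genes of the list went the other way. In CD49b+ cells Ifi30 rose by 0.85 ± 0.23 and Clec4a2 by 0.51 ± 0.12. The third that rose there, Fcgr3, was above the array median in the subsets alone, averaging 4.79 in CD49b+ cells and 4.50 in CD4+ cells of injected mice. In CD25+ cells Batf3, a transcription factor of cross-presenting dendritic cells that T cells also express, rose by 2.01 ± 0.20. Fcer1g, the shared Fc receptor chain, rose there by 1.90 ± 0.28, Irf8 by 0.81 ± 0.19 and Clec4a2 by 0.35 ± 0.12. The summed linear signal of the 24 genes was between 921 and 1103 in CD49b+ cells, between 1024 and 1290 in CD25+ cells, 1022 and 1171 in CD4+ cells of injected mice and 1573 and 1897 in those of naive mice. Its part in the differences of the 9 genes was not tested.

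Of 22 listed B cell genes other than Cd22 and Ly86, 20 had a probe set and 9 were tested. Above the array median lay 5 to 7 of the 20 in CD49b+ cells, 6 to 11 in CD25+ cells, and 6 to 7 in CD4+ cells of injected mice as in those of naive mice. In CD49b+ cells 1 rose and 5 fell, beside 29.9% and 23.5% of all genes, with a median of -0.37 against 0.03. In CD25+ cells 1 rose and 1 fell, beside 20.8% and 17.8% of all genes, with a median of -0.01. The gene that rose was Cd79b in both, and as it had to differ to be tested it is no support. Pou2af1, a coactivator that B cells need for germinal centres, averaged 4.43 ± 0.12 in CD49b+ and 4.87 ± 0.54 in CD25+ cells (SD, n = 3 each), 5.74 ± 0.00 in CD4+ cells of injected mice and 6.98 ± 0.35 in those of naive mice (SD, n = 2 each), and it fell in both subsets (-1.31 ± 0.26, limma adjusted p = 0.00216, and -0.87 ± 0.26, adjusted p = 0.0241). Cd79b, a signalling chain of the B cell receptor, was above the array median in the subsets alone, averaging 5.38 ± 0.21 in CD49b+ and 5.95 ± 0.16 in CD25+ cells (SD, n = 3 each) and 4.42 ± 0.16 in CD4+ cells of injected mice (SD, n = 2). Between the subsets 4 of the 9 were lower in CD49b+ cells, beside 12.4% of all genes: Ralgps2 (-1.17 ± 0.15), Cd72 (-0.58 ± 0.06), Cd79b (-0.57 ± 0.13) and Blk (-0.45 ± 0.09). The summed signal of the 20 genes was between 745 and 867 in CD49b+ cells, between 906 and 1137 in CD25+ cells, 968 and 1067 in CD4+ cells of injected mice and 1203 and 1267 in those of naive mice, and its part in the differences was not tested.

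**Figure D4:**
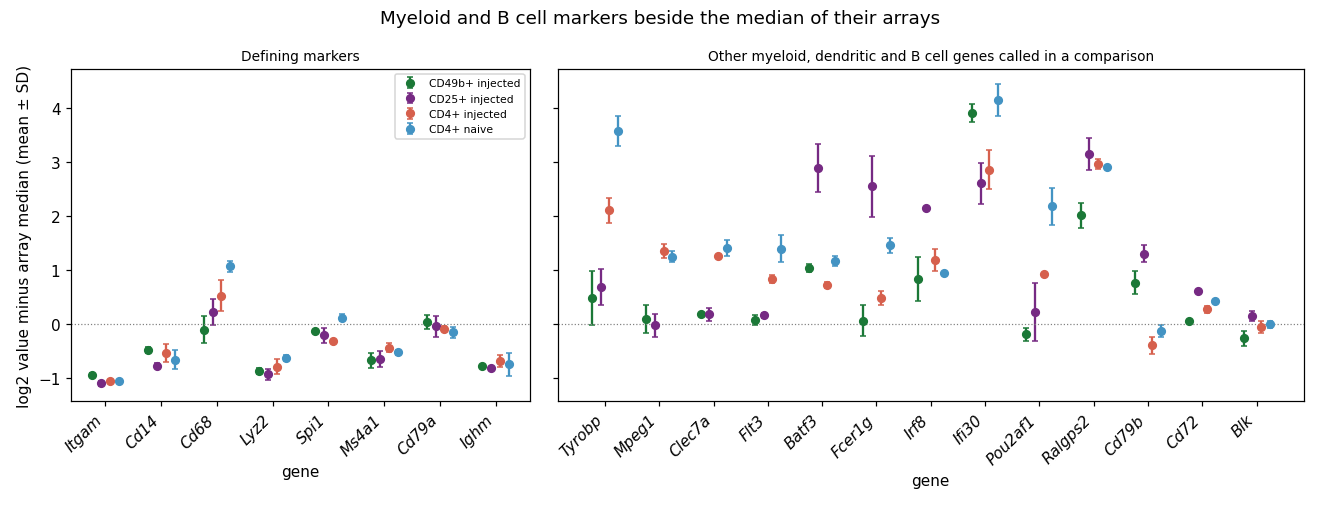
Group mean of the log2 value minus the mean array median (vertical axis, bars ± SD, n = 3 for CD49b+ and CD25+ cells and n = 2 for each CD4+ group) for the 8 defining markers on the left and for named myeloid, dendritic and B cell genes on the right. Itgam, Cd14, Lyz2, Ms4a1 and Ighm lie below 0 in all 4 groups, and Tyrobp, Flt3 and Pou2af1 are highest in naive CD4+ cells.

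Genes of antigen presentation on MHC class II were measured beside these, and H2-Aa, H2-Ob and Cd74 were, like Cybb, called lower in CD49b+ and higher in CD25+ cells than in CD4+ cells of injected mice. Of 9 tested, 1 rose and 5 fell in CD49b+ cells (median -0.52), beside 29.9% and 23.5% of all genes. In CD25+ cells 4 rose and 1 fell (median 0.67), beside 20.8% and 17.8%. Between the subsets, 5 were lower in CD49b+ than in CD25+ cells (median -0.95), beside 12.4%. H2-Aa, an alpha chain of class II, averaged 7.10 ± 0.48 in CD49b+ and 10.73 ± 0.42 in CD25+ cells (SD, n = 3 each), 9.32 ± 0.26 in CD4+ cells of injected mice and 11.03 ± 0.10 in those of naive mice (SD, n = 2 each). Cd74, the invariant chain, averaged 6.47 ± 0.19, 8.28 ± 0.37, 7.35 ± 0.24 and 8.75 ± 0.08 in the same groups. Cd74 fell by 0.88 ± 0.20 in CD49b+ cells (limma adjusted p = 0.00487) and rose by 0.93 ± 0.20 in CD25+ cells (adjusted p = 0.00537). In injected against naive CD4+ cells 6 of the 9 were called lower, beside 1.36% of all genes, with a median of -1.38 against -0.03. Ciita, 1 of the 6, was above the array median in naive CD4+ cells alone and had to differ to be tested. The summed signal of the 10 listed genes was between 571 and 776 in CD49b+ cells, between 2236 and 3769 in CD25+ cells, 1343 and 1666 in CD4+ cells of injected mice and 4089 and 4577 in those of naive mice.

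Markers of further cell types that the sort could hold were counted in the same way. Of all genes, 29.9% were called higher and 23.5% lower in CD49b+ cells, and 20.8% and 17.8% in CD25+ cells. Of 8 natural killer cell genes tested, 5 rose and 2 fell in CD49b+ cells and 3 rose and 3 fell in CD25+ cells. Ncr1, Gzma and Gzmb, above the array median in the subsets alone, are among the 5 and are the 3. They had to differ to be tested, so their rises are no support. Nkg7 and Klrk1, the rest of the 5, were above the array median on all 10 arrays. They rose by 2.78 ± 0.39 and 0.53 ± 0.12 in CD49b+ cells (limma adjusted p = 0.000300 and 0.00421). Prf1 and Eomes fell there (-1.10 ± 0.11 and -0.91 ± 0.10). Between the subsets, 5 were higher and 0 lower in CD49b+ than in CD25+ cells, beside 17.5% and 12.4% of all genes. Gzmb, a granzyme that activated T cells share, averaged 9.67 ± 0.31 in CD49b+ and 6.63 ± 0.28 in CD25+ cells (SD, n = 3 each) and 4.45 ± 0.32, under the array median, in CD4+ cells of injected mice (SD, n = 2). Of 3 neutrophil and basophil genes tested, 1 fell in CD49b+ cells, Ltf (-0.30 ± 0.10), and 0 were called in the other comparisons, where 2 (CD25+ against CD4+ cells), 0 and 0 had an unadjusted p under 0.05. Of 5 platelet and erythroid genes tested, limma called 0 in any comparison, and 1 had an unadjusted p under 0.05, in injected against naive CD4+ cells. Of the 11 T cell identity genes, 5 rose in CD49b+ cells, Thy1 the most (1.06 ± 0.14), and 1 fell, while 1 rose and 2 fell in CD25+ cells. The part of these cell types in the differences of the 9 genes was not tested.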

How the data were processed

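The deposited table holds log2 expression values of 45141 probe sets on 10 arrays, which the authors computed using Affymetrix Expression Console 1.2.1 and the background correction and summary method GCRMA (per the submitters' processing notes). The sources used here do not state if all arrays were normalized in 1 run, so part of a difference in level between groups may come from that step. After 104 control probe sets were set aside, 28898 probe sets had 1 gene symbol in the array's annotation. Each of 17097 genes was represented by its probe set of highest mean. Genes above the 50th percentile of at least 2 arrays (11037) were tested in 1 fit of the 4 group means (lmFit and eBayes of limma 3.58.1 in R 4.3.3, two-sided, 6 residual degrees of freedom), with Benjamini-Hochberg adjustment over all of them. The steps were tested on simulated data. For arrays, their number limits the precision.

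The members, the gene lists and the tests were chosen with earlier results of these data known. Named were all 9 members and their probe sets, up to 4 called genes of each list with the largest absolute difference, 8 defining markers, and the 3 genes nearest to each member by root mean square difference of centred profiles. Ncr1, Klrk1, Eomes, Ifi30, Clec4a2, Fcgr3 and Ciita are named beside these where they bear on a count. List counts leave out the 9 members. Samples were grouped by their labels. Replicate numbers come from the labels, which do not say that a number marks a shared pool or sort. Same-numbered arrays of CD49b+ and CD25+ cells deviated together from their group means (r = 0.16, 0.37 and 0.64 over 11037 genes, which are not independent replicates). With CD4+ cells of injected mice, replicates 1 and 2 gave 0.09 and 0.52 for CD49b+ cells and 0.24 and 0.53 for CD25+ cells. A fit with the number as a block was set beside the comparison of the subsets. Alternatives were other filters, quantile normalization, median centring, the mean of a gene's probe sets, an intensity trend, only the arrays compared, naive CD4+ cells as comparator, and each array left out in turn. Leaving out both arrays of high poly-A signal and a crossed block were added after seeing the data.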

Additional observations from a re-analysis of the deposited data

How the results depend on the processing

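Against CD4+ cells, the 20 alternatives called between 6 and 8 of the 9 genes in CD49b+ cells, and between 3 and 7 in CD25+ cells. Among them is that with naive CD4+ cells as comparator, which uses arrays on which the genes were chosen and so is no support. In CD49b+ against CD25+ cells, 19 alternatives called between 4 and 6. Leaving out 1 array gave 8 to 8, 3 to 6 and 4 to 5; the 3 came without replicate 1 of the CD4+ cells of injected mice, where Adgre1, Cybb and Cst3 were not called in CD25+ cells. Without the arrays of high poly-A signal the counts were 8, 5 and 4. The 70th percentile filter removed 3 of the 9 genes (Adgre1, Cd300a and Csf1r) from the test. The direction turned for Cybb in CD25+ cells against naive CD4+ cells (-0.67), for Fscn1 in CD25+ cells against naive CD4+ cells (-2.27), with the mean of probe sets (-0.0921) and without 1 array (-0.22 to 0.25), and for Cd22 in CD25+ cells with centred arrays (0.10) and without 1 array (-0.21 to 0.10). Csf1r turned in CD25+ cells against naive CD4+ cells (-0.0289) and without 1 array (-0.0122 to 0.15), in CD49b+ cells against naive CD4+ cells (-0.0440) and without 1 array (-0.0205 to 0.12), and between the subsets with quantile normalization (0.0227), centred arrays (0.0174), without the arrays of high poly-A signal (0.0269) and without 1 array (-0.10 to 0.0599). With the mean of a gene's probe sets the median of the 9 genes in injected against naive CD4+ cells was -0.62 in place of -1.02, and without 1 array it was between -1.13 and -0.86. Over all genes, the count called in CD49b+ against CD4+ cells (5892) became 9123 with no filter on dim genes, and that in CD25+ against CD4+ cells (4261) became 7583 with no filter and 2500 at the 70th percentile, since the number of genes tested changed. Without 1 array these counts were 4357 to 5996 and 2818 to 4180, the lowest both without replicate 1 of the CD4+ cells of injected mice, and that of CD49b+ against CD25+ cells was 2496 to 3193. In injected against naive CD4+ cells limma called 153 genes, 16 to 154 without 1 array (16 without naive replicate 2) and 0 with only the 4 arrays compared, where 1737 had an unadjusted p under 0.05. The replicate block gave 377 there, and the crossed pairing 526; the numbers of those arrays deviated oppositely (r = -0.21), and the cause was not tested. In CD49b+ against CD25+ cells, where same-numbered arrays deviated together though no label states a pairing, the block added Cst3 (adjusted p = 0.0114) and changed no other call of the 9 genes. Centring arrays on their medians moved the median of all genes to 0.22 for CD49b+ and to 0.18 for CD25+ minus CD4+ cells, and the share of higher among called genes to 78.3% and 78.6%, in place of 56.0% and 53.9%. Signal near the array median limits Cd300a, Adgre1, Fscn1 and Ly86 in the subsets, Cybb in CD49b+ cells, and Csf1r in all 4 groups. No group has over 3 arrays, so no array could be tested as an outlier of its group.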
